A study of Mus musculus with 384 samples.

Results

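Sfrp4, Frzb, Dkk3, Sostdc1 and Wisp2 encode secreted proteins that modulate Wnt signalling, and their transcripts were described well by well in single PDGFRB+ cells of mouse kidney. The members are the 5 named genes out of 40594 genes present in both count tables, each on 1 line of each table, with the identifiers ENSMUSG00000021319, ENSMUSG00000027004, ENSMUSG00000030772, ENSMUSG00000036169 and ENSMUSG00000027656 in the order named. They were chosen by their measured levels and their spread over wells in these same data, so those levels are given as a description with no test. The study sorted single kidney cells of mice aged 8 weeks into 4 plates of 96 wells: PDGFRB+CD45- cells and PDGFRB+CD45+ cells, each in batch 1 and in batch 2. PDGFRB, a receptor for platelet-derived growth factor, marks pericytes and other mesenchymal cells, and CD45, the product of Ptprc, is a surface phosphatase of leukocytes. Well names in all 4 plates carry the letters uuo, which the labels leave unexplained, so every group shares that condition and no unmarked control was analysed here. No strain, genotype, sex or animal is named, so how many mice each plate holds is unknown, and a plate counts as 1 sample.

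Wnt proteins are secreted ligands that bind Frizzled receptors and the co-receptors LRP5 and LRP6, and canonical signalling then stabilises beta-catenin, which acts with TCF/LEF factors on target genes. Secreted modulators act outside the cell. The products of Sfrp4 and Frzb (also called Sfrp3) carry a Frizzled-like cysteine-rich domain and bind Wnt ligands. The product of Dkk3 is the divergent Dickkopf family protein, that of Wisp2 (renamed Ccn5) a matrix-associated CCN family protein, and that of Sostdc1 (also called USAG-1) an antagonist of both BMP ligands and the Wnt co-receptors that is known from kidney tubule epithelium. Wnt signalling is active in injured kidney and is widely studied in renal fibrosis.

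Of the 5 genes, 1 had an entry in the RefSeq table of promoters, Frzb. Its stretch around the TCF/LEF core motif is shown because that motif is where the pathway these proteins modulate meets DNA; it lies at chr2:80447474-80447503 on the minus strand of GRCm38.p6, and capitals mark the motif.
Frzb: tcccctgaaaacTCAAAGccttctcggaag
The letters TCAAAG were searched on both strands of the 300 bases from 250 before to 50 after the RefSeq gene start. They occurred 1 time on the sense strand, 95 bases before that start, and 0 times on the other strand. The same core occurred on either strand in 16% of the 32851 promoter entries, so a match is common and says nothing about binding. Sfrp4, Dkk3, Sostdc1 and Wisp2 were not in that table.

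Reads per gene are given as CPM, the counts-per-million value taken over all genes of the same well or plate. A plate's CPM is taken over the summed reads of its kept wells, those with at least 10000 reads and 500 detected genes. Kept wells numbered 93 (CD45-) and 92 (CD45+) in batch 1, and 93 (CD45-) and 90 (CD45+) in batch 2. The plates' kept wells held 26479862 to 31756482 reads. Well-by-well values use the 79 and 82 CD45- wells and the 76 and 78 CD45+ wells of batches 1 and 2 with at least 50000 reads, and such a well is said to hold a gene at 100 CPM or more. Intervals are exact 95% intervals for counting error only, since no molecular identifiers were stated. Levels were not compared between genes, since reads also grow with transcript length. The gates matched their labels on Ptprc: batch 1 had 0.136 CPM in CD45- and 468.7 CPM in CD45+, and batch 2 had 0.976 CPM in CD45- and 302.8 CPM in CD45+. Transcripts of Pdgfrb, the sort antigen of all wells, were nearly absent from the CD45+ gate: batch 1 had 294.4 CPM in CD45- and 0.113 CPM in CD45+, and batch 2 had 219.6 CPM in CD45- and 5.73 CPM in CD45+. Only 43 of the 161 CD45- wells held Pdgfrb.

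Sfrp4, Frzb, Wisp2 and Dkk3 stood higher in CD45- than in CD45+ in each batch, and Sostdc1 did not. A call required at least a 4-fold gap of the same sign in batch 1 and in batch 2, with ratios taken as log2 of CPM plus 1, CD45- over CD45+. In such plate sums, fewer cells with a transcript and less of it per cell cannot be told apart, so wells are given after them. By this rule 4.10% of the 40594 genes were called higher in CD45- and 1.37% higher in CD45+. Among the 12882 genes that averaged at least 1 CPM the shares were 12.9% and 4.33%. The 5 genes were chosen with this contrast known, so their count of 4 in 5 is a description.

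**Figure D1:**
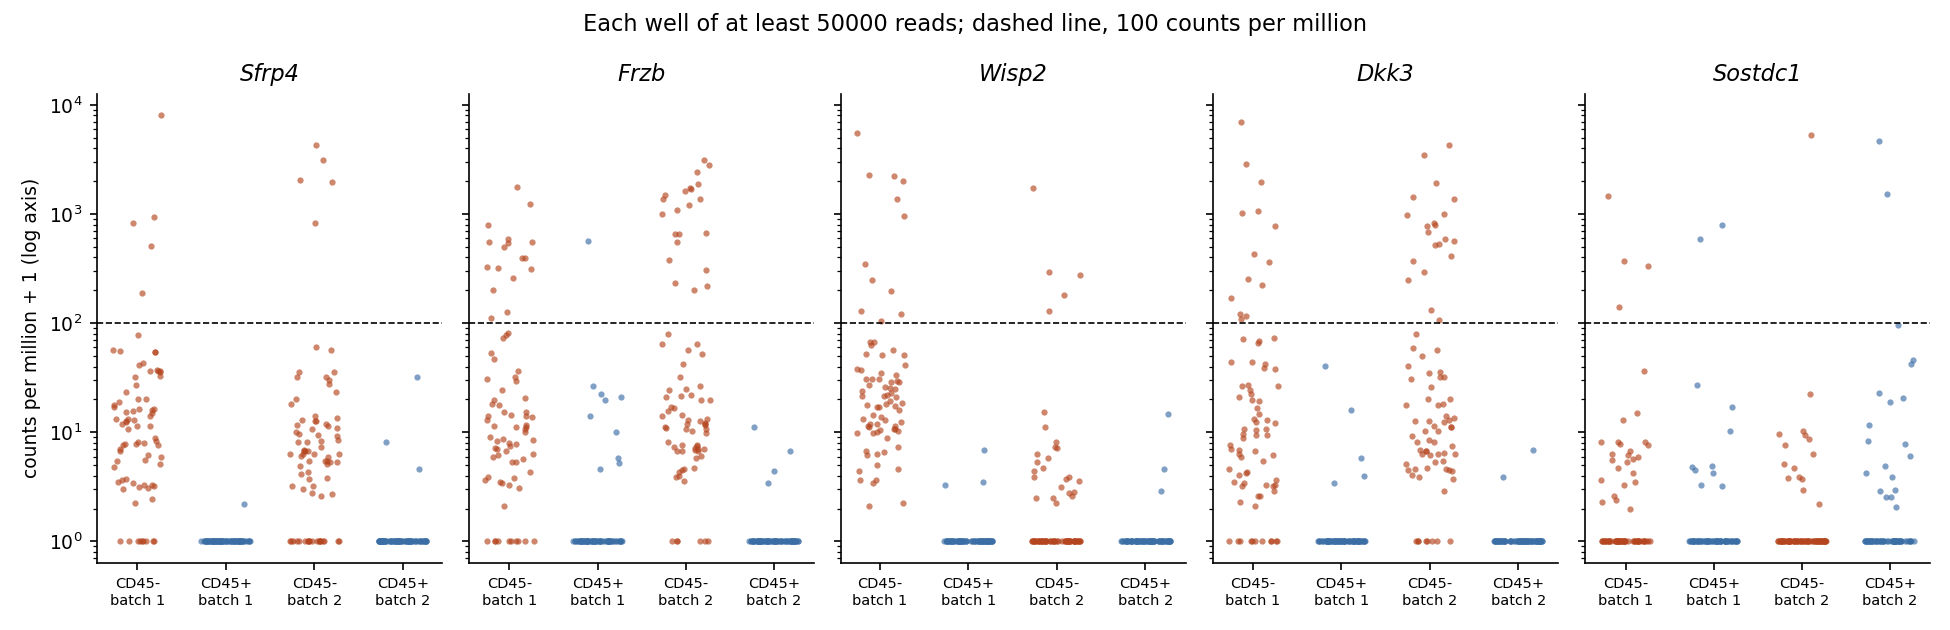
CPM plus 1 (vertical log axis) of each gene in every well of at least 50000 reads, by gate and batch, with the 100 CPM holding level dashed and horizontal scatter added for display. Wells above the line lie almost wholly in the CD45- plates for Sfrp4, Frzb, Wisp2 and Dkk3, while Sostdc1 has 5 such CD45- wells and 4 such CD45+ wells.

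Sfrp4, whose product binds Wnt ligands, was held by the fewest wells of the 4 CD45- genes. Its plate level was 320.4 CPM (314 to 327) in CD45- and 0.0378 CPM (0.000956 to 0.21) in CD45+ in batch 1, and 233.4 CPM (228.1 to 238.8) in CD45- and 0.211 CPM (0.0774 to 0.459) in CD45+ in batch 2. The log2 ratios were 8.27 in batch 1 and 7.6 in batch 2. In batch 1, 5 of 79 CD45- wells held it, at 8106 CPM in replicate 35, 941.1 in replicate 96, 819.8 in replicate 9, 511.5 in replicate 40 and 186.6 in replicate 92. In batch 2, 5 of 82 CD45- wells held it, at 4283 CPM in replicate 66, 3147 in replicate 96, 2056 in replicate 31, 1977 in replicate 38 and 818.6 in replicate 79. Between holding and other CD45- wells there was an open gap, since the highest well below 100 CPM stood at 76.4 CPM in batch 1 and at 59.8 CPM in batch 2. No CD45+ well held Sfrp4, 0 of 76 and 0 of 78, which allows shares of up to 4.74% and 4.62%. Replicate 35 alone gave 7652 of the 9403 reads of CD45- batch 1, or 81.4%, and without it the plate level was 61.7 CPM and the log2 ratio 5.92.

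Frzb was held by more CD45- wells, 39 of 161 or 24.2% (17.8 to 31.6%), against 1 of 154 CD45+ wells or 0.649% (0.0164 to 3.57%). Its plate level was 146.6 CPM (142.2 to 151) in CD45- and 15.4 CPM (13.9 to 16.9) in CD45+ in batch 1, and 396.5 CPM (389.6 to 403.4) in CD45- and 0.246 CPM (0.0989 to 0.507) in CD45+ in batch 2. The log2 ratios were 3.17 and 8.32. Replicate 5 of CD45+ batch 1 alone held 366 of that plate's 407 Frzb reads, at 559.1 CPM, and without it the log2 ratio of batch 1 was 5.83. The 17 holding CD45- wells of batch 1 ranged over 110.9, 396.8 and 1768 CPM (lowest, median, highest) and the 22 of batch 2 over 200, 1151 and 3100 CPM. The highest CD45- wells below the holding level stood at 79.8 and 78.9 CPM. Reads were spread over many wells: the top well gave 11.4% of the reads in CD45- batch 1 and 14% in CD45- batch 2.

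The CD45+ well that held Frzb carried contractile and matrix transcripts beside leukocyte markers at a low summed level. In that well, replicate 5 of batch 1 with 654616 reads, Acta2, which encodes smooth muscle actin, stood at 5269 CPM, Col1a1, a fibrillar collagen chain, at 4351 CPM and Ptprc at 4.58 CPM. It held 4 of 8 leukocyte markers (Cd52, Tyrobp, Fcer1g and Lyz2) and their summed level was 817.3 CPM. The other CD45+ wells of batch 1, 73 wells that held none of the 5 genes, held 2 to 8 of the 8 markers (median 6), with summed levels of 906.5, 35687 and 86820 CPM (lowest, median, highest). Ptprc itself was held by 25 of the 76 CD45+ wells of batch 1 and 20 of the 78 of batch 2, so its absence does not set a well apart. It also held 26 of the 35 Dkk3 reads of its plate, at 39.7 CPM. Whether it was sorted into the wrong gate was not tested.

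Dkk3 was held by 35 of 161 CD45- wells, 21.7% (15.6 to 28.9%), and by 0 of 154 CD45+ wells, which allows a share of up to 2.37%. Its plate level was 210.9 CPM (205.6 to 216.2) in CD45- and 1.32 CPM (0.921 to 1.84) in CD45+ in batch 1, and 293.1 CPM (287.1 to 299.1) in CD45- and 0.141 CPM (0.0383 to 0.36) in CD45+ in batch 2. The log2 ratios were 6.51 and 8.01. The 14 holding CD45- wells of batch 1 ranged over 107.5, 394.1 and 7022 CPM and the 21 of batch 2 over 105.9, 679.2 and 4304 CPM (lowest, median, highest). The lowest holding wells lay close to the holding level, and the highest CD45- wells below it stood at 72.6 and 78.5 CPM. Without replicate 5 the CD45+ level of batch 1 was 0.349 CPM and the log2 ratio 7.30.

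Wisp2 differed most between the 2 CD45- plates. It stood at 312.2 CPM (305.8 to 318.6) in CD45- and 0.189 CPM (0.0613 to 0.441) in CD45+ in batch 1, and at 52.2 CPM (49.8 to 54.8) in CD45- and 0.141 CPM (0.0383 to 0.36) in CD45+ in batch 2, for log2 ratios of 8.04 and 5.54. In batch 1, 12 of 79 CD45- wells held it, at 103.7, 651.8 and 5557 CPM (lowest, median, highest). In batch 2, 5 of 82 CD45- wells held it, at 1723 CPM in replicate 85, 291.7 in replicate 38, 274.8 in replicate 14, 179.3 in replicate 79 and 128.6 in replicate 96. Only replicate 85 of batch 2 reached the median of the batch 1 holders. It gave 64.6% of the Wisp2 reads of CD45- batch 2, and without it that plate stood at 18.9 CPM with a log2 ratio of 4.12. No CD45+ well held Wisp2, and the highest of the CD45+ wells of at least 50000 reads stood at 13.8 CPM.

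Sostdc1 was found in few wells of either gate, at high levels. Its plate level was 48.1 CPM (45.6 to 50.7) in CD45- and 35.8 CPM (33.6 to 38.2) in CD45+ in batch 1, and 24.4 CPM (22.7 to 26.2) in CD45- and 75.3 CPM (72.1 to 78.5) in CD45+ in batch 2. The log2 ratio was 0.41 in batch 1 and -1.59 in batch 2, so it was called in neither direction. CD45- batch 1 had 4 holding wells, at 1462 CPM in replicate 18, 367.8 in replicate 1, 332.6 in replicate 46 and 138.3 in replicate 74. CD45- batch 2 had 1, replicate 88 at 5315 CPM. CD45+ batch 1 had 2, replicate 27 at 796.7 CPM and replicate 35 at 595.4 CPM, and CD45+ batch 2 had 2, replicate 75 at 4628 CPM and replicate 48 at 1540 CPM. Holding wells of the gates overlapped in level, 5 of 161 or 3.11% (1.02 to 7.1%) of CD45- wells and 4 of 154 or 2.6% (0.712 to 6.52%) of CD45+ wells. Replicate 88 gave 96.9% of the reads of its plate, and without it the ratio of batch 2 was -5.44. Without replicate 75 of CD45+ batch 2 that ratio was 0.19, and without replicate 18 of CD45- batch 1 the ratio of batch 1 was -1.26.

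The CD45- wells that held Sostdc1 held each of 8 fibroblast markers less often than other CD45- wells did, but some held several. At least 3 of the 8 were held by 2 of the 4 Sostdc1 wells of batch 1 and by the 1 of batch 2. Among all CD45- wells this was 68 of 79 in batch 1 and 67 of 82 in batch 2. Of the 5 CD45- wells, 0 held Pdgfrb, 0 held Lum, the gene of the collagen-binding proteoglycan lumican, and 3 held Col1a1, against 43, 37 and 146 of the other 156 CD45- wells. Of the listed tubule markers, Epcam was held by 0 of the 5 and by 4 of the other 156 CD45- wells. Slc34a1 and Lrp2 were also held by 0 of the 5, and each of the other listed tubule markers by 1 or 2. Tubule transcripts, chosen here after the wells' values were seen, were high in 3 of the 5. Fxyd2, a regulatory subunit of the sodium pump abundant in tubules, stood at 38375 CPM in replicate 18, 14746 CPM in replicate 46 and 41419 CPM in replicate 88. Replicate 46 also had the collecting duct water channel Aqp2 at 5451 CPM and the kidney cadherin Cdh16 at 2098 CPM, replicate 18 the distal tubule transporter Slc12a3 at 494.2 CPM, and replicate 88 the keratin Krt18 at 2310 CPM. The other 2 wells differed: replicate 1 had the endothelial gene Egfl7 at 3443 CPM and replicate 74 had Acta2 at 4897 CPM. High Fxyd2 was not confined to Sostdc1 wells, since it stood at 5862 CPM in replicate 44 of CD45- batch 2, which held Frzb and Dkk3. Among the CD45+ wells, Fxyd2 stood at 62584 CPM in replicate 35 of batch 1, 30403 CPM in replicate 75 of batch 2, 5336 CPM in replicate 48 of batch 2 and 1741 CPM in replicate 27 of batch 1. Ptprc stood at 703.9 CPM in replicate 27 and at 1.2, 15 and 5.77 CPM in replicates 35, 75 and 48. All 4 wells held leukocyte markers, 5 of 8 in replicate 27 and 3 of 8 in replicate 35 of batch 1, and 5 of 8 in replicate 48 and 3 of 8 in replicate 75 of batch 2. Summed over the 8, the level was 31392 CPM in replicate 27, 1756 CPM in replicate 35, 10308 CPM in replicate 48 and 665.4 CPM in replicate 75. In batch 2 the CD45+ wells without any of the 5 genes ranged over 2353, 33717 and 64902 CPM, so replicate 75 lay below all of them.

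The 4 CD45- genes were partly shared between wells, and Sostdc1 was held apart from them. Of the 161 CD45- wells, 87 held none of the 5 genes, 49 held 1, 19 held 2, 5 held 3 and 1 held 4. Wells with 2 or more were 11 of 79 in batch 1 and 14 of 82 in batch 2, together 25 of the 74 wells with any, or 33.8%. The well with 4 was replicate 79 of batch 2, with Sfrp4 at 818.6, Frzb at 1371, Wisp2 at 179.3 and Dkk3 at 105.9 CPM. Wells with 3 were replicates 35 and 86 of batch 1 and replicates 14, 38 and 96 of batch 2.

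How often a gene was held alone differed between genes. Over both batches Sfrp4 was the sole member in 2 of its 10 wells, Wisp2 in 5 of 17, Dkk3 in 14 of 35, Frzb in 23 of 39 and Sostdc1 in 5 of 5. By batch the sole member was Sfrp4 in 1 of 5 wells and 1 of 5, Wisp2 in 5 of 12 and 0 of 5, Dkk3 in 6 of 14 and 8 of 21, and Frzb in 12 of 17 and 11 of 22. Frzb was thus held alone most often of these 4 in both batches. Wisp2 was held by 6 of the 10 Sfrp4 wells, against 11 of the 151 CD45- wells without Sfrp4, 7.28%. Those 6 wells were 35.3% of the 17 Wisp2 wells, and 3 came from each batch. Dkk3 was held by 5 of the 10 Sfrp4 wells and 30 of the other 151, and by 8 of the 17 Wisp2 wells, 47.1%, and 27 of the other 144, 18.8%. The largest number of shared wells was that of Frzb with Dkk3, 14, or 35.9% of the Frzb wells and 14 of the 35 Dkk3 wells, with 4 in batch 1 and 10 in batch 2. Frzb was held by 2 of the 10 Sfrp4 wells and 37 of the other 151 (24.5%), and both shared wells came from batch 2. Sostdc1 shared 0 wells with each of the other 4 genes, and at 5 wells a rare overlap would not have been detectable.

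Wells that held more of the 5 genes were also read more deeply. Median reads were 604640 in the 11 wells with 2 or more members in batch 1, 377510 in the 28 with 1 and 249616 in the 40 with none, and in batch 2 they were 610016 in 14 wells, 372121 in 21 and 268924 in 47. Parted at each plate's median depth, 21 of the 25 wells with 2 or more members were among the deeper 81 wells and 4 among the shallower 80. That is 21 of 50 wells with any member among the deeper and 4 of 24 among the shallower. With every well thinned to 50000 reads and 5 reads required, which sets the same level at equal depth, the count of wells with 2 or more was 25, with 11 in batch 1 and 14 in batch 2. Thinning leaves a well's expected CPM unchanged, so this count cannot show whether sharing depended on depth. Whether some of the deeper wells held more than 1 cell was not tested.

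**Figure D2:**
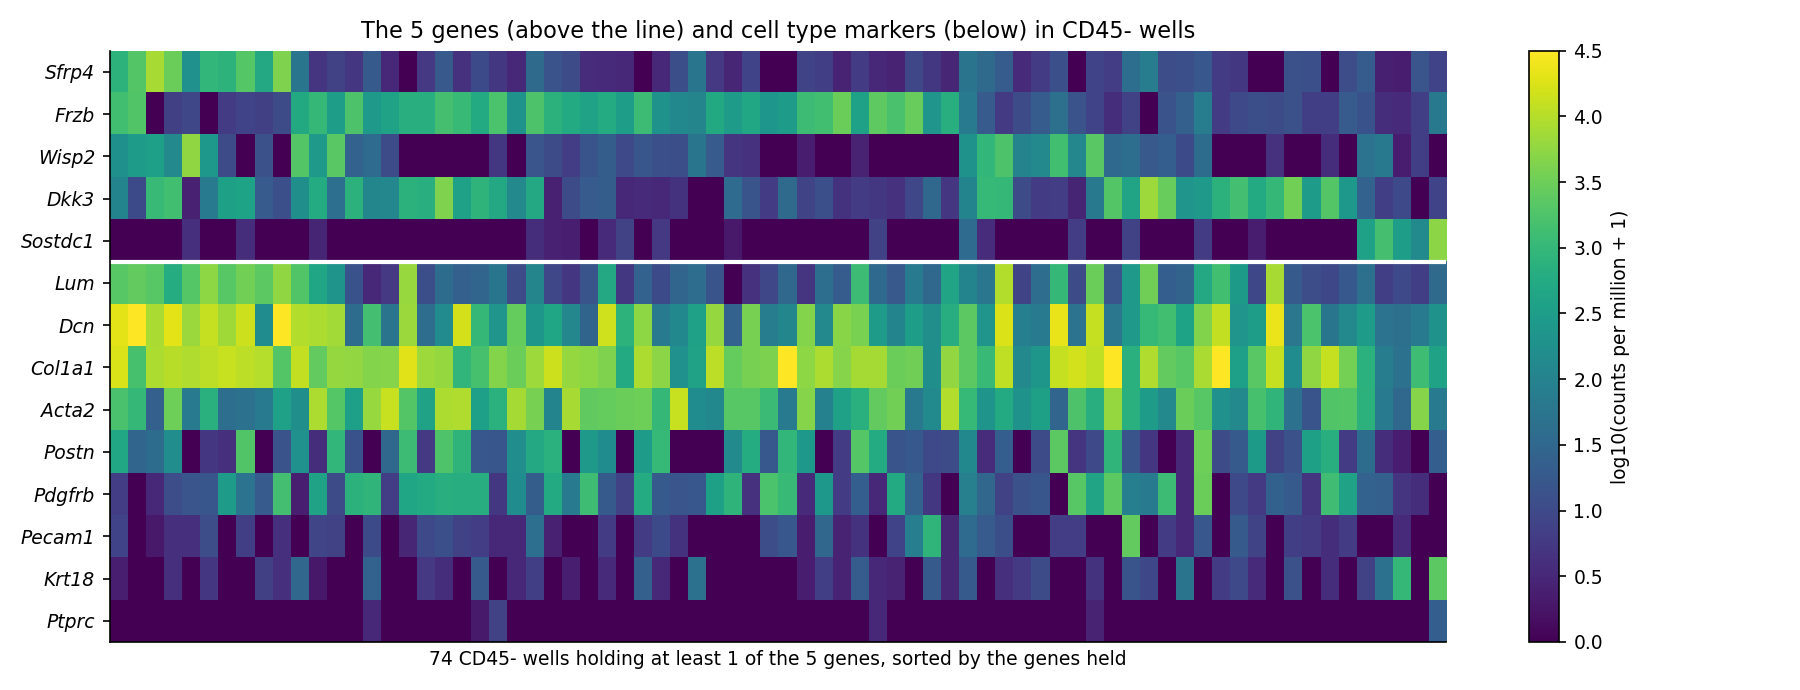
Log10 of CPM plus 1 (colour) for the 5 genes (upper rows) and 9 cell type markers (lower rows) in the 74 CD45- wells that held at least 1 of the 5 genes, 1 column a well, ordered by the genes held. Sfrp4 wells at the left all hold Lum and Dcn, Frzb wells are mostly high in Acta2, and the 5 Sostdc1 wells at the right hold none of the other 4 genes.

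Marker shares differed between the wells of the 5 genes. The genes and the marker lists were chosen with earlier results of these data known. Wells of a plate also share 1 library pool and are not replicates, so shares of wells are given without a test. Sfrp4 and Wisp2 wells held Lum most often. Lum was held by 10 of 10 Sfrp4 wells against 27 of the other 151 CD45- wells (17.9%), and Dcn, the gene of the proteoglycan decorin, by 10 of 10 against 109 (72.2%). Lum was held by 13 of 17 Wisp2 wells, 76.5%, against 24 of the other 144, 16.7%. Pdgfrb itself was held by 2 of the 10 Sfrp4 wells and 3 of the 17 Wisp2 wells, against 27.2% and 27.8% of the wells without each gene. Other pericyte markers did not all go that way. Rgs5 was held by 4 of the 10 Sfrp4 wells and 5 of the 17 Wisp2 wells, against 13.9% and 13.9%. Mcam was also lower in Sfrp4 wells, and Cspg4, Mcam and Notch3 were lower in Wisp2 wells. Shares of the remaining listed pericyte markers were higher.

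Frzb wells held the contractile marker Acta2, the matricellular gene Postn and Pdgfrb more often than other CD45- wells did. Acta2 was held by 36 of 39 Frzb wells, 92.3%, against 83 of the other 122 CD45- wells, 68%, with 17 of 17 in batch 1 and 19 of 22 in batch 2. Postn, the gene of the matrix protein periostin, was held by 19 of 39 against 13 of 122, 48.7% and 10.7%. By batch it was in 9 of 17 Frzb wells and 10 of 22, in 4 of 14 Dkk3 wells and 11 of 21, in 0 of 5 Sfrp4 wells and 3 of 5, and in 4 of 12 Wisp2 wells and 2 of 5. The order of the genes by Postn therefore differed between batches. In Frzb wells Pdgfrb was held by 18 of 39 against 25 of 122, 46.2% and 20.5%. Of the other pericyte markers, Mcam and Abcc9 were more frequent in Frzb wells too. Rgs5 (15.4% against 15.6%), Cspg4, Notch3 and Kcnj8 were not. Lum was held by 10 of 39 Frzb wells, 25.6%, against 27 of 122, 22.1%. Dkk3 wells shared parts of both patterns, with Lum in 17 of 35 against 20 of the other 126 (48.6% and 15.9%), Postn in 15 of 35 against 17 (42.9% and 13.5%) and Pdgfrb in 15 of 35 against 28 (42.9% and 22.2%). The pericyte markers Kcnj8 and Abcc9 were also more frequent in Dkk3 wells, while Rgs5 (8.57% against 17.5%), Cspg4, Mcam and Notch3 were less frequent.

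Wells with several markers of another cell type were few among the holders of the 4 CD45- genes, while single such markers were not rare. At least 3 of 7 endothelial markers were held by 0 of 10 Sfrp4, 2 of 39 Frzb, 1 of 17 Wisp2 and 1 of 35 Dkk3 wells, out of 42 such CD45- wells. At least 3 of 12 tubule markers were held by 0 wells of each of the 4 genes and by 2 of the 5 Sostdc1 wells. At least 3 of 7 macrophage markers were held by 1 Sfrp4 and 1 Frzb well, both in batch 2. Both classes were rare among all CD45- wells, so low counts say little. In batches 1 and 2 the tubule class had 3 of 79 and 4 of 82 wells, and the macrophage class 0 of 79 and 4 of 82. Single markers of those lists were held more often: Emcn, an endothelial sialomucin, by 11 of 39 Frzb wells (28.2%) and 4 of 17 Wisp2 wells (23.5%), the podocyte marker Synpo by 9 of 39 and 4 of 17, and C1qb, a macrophage complement gene, by 5 of 39 and 2 of 17. In the wells without Frzb, Emcn was held by 38.5%, Synpo by 20.5% and C1qb by 15.6%. Pecam1, an endothelial adhesion gene, was held by 0 of 10 Sfrp4, 0 of 17 Wisp2, 1 of 39 Frzb and 1 of 35 Dkk3 wells, against 29 of all 161 CD45- wells. Krt18 was held by 0 wells of each of the 4 and by 2 of the 5 Sostdc1 wells, out of 6 of all 161 CD45- wells. Ptprc was held by 0 of the 161. Haemoglobin transcripts, made by red cells, moved with the gate: at least 3 of 5 red cell genes were held by 79 of 79 and 56 of 82 CD45- wells of batches 1 and 2, against 1 of 76 and 0 of 78 CD45+ wells. Hbb-bs, a beta globin gene, was held by 92.3% of Frzb wells and 92.6% of the other CD45- wells. Where the haemoglobin reads of CD45- wells came from, and their part in the gate ratios, were not tested.

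**Figure D3:**
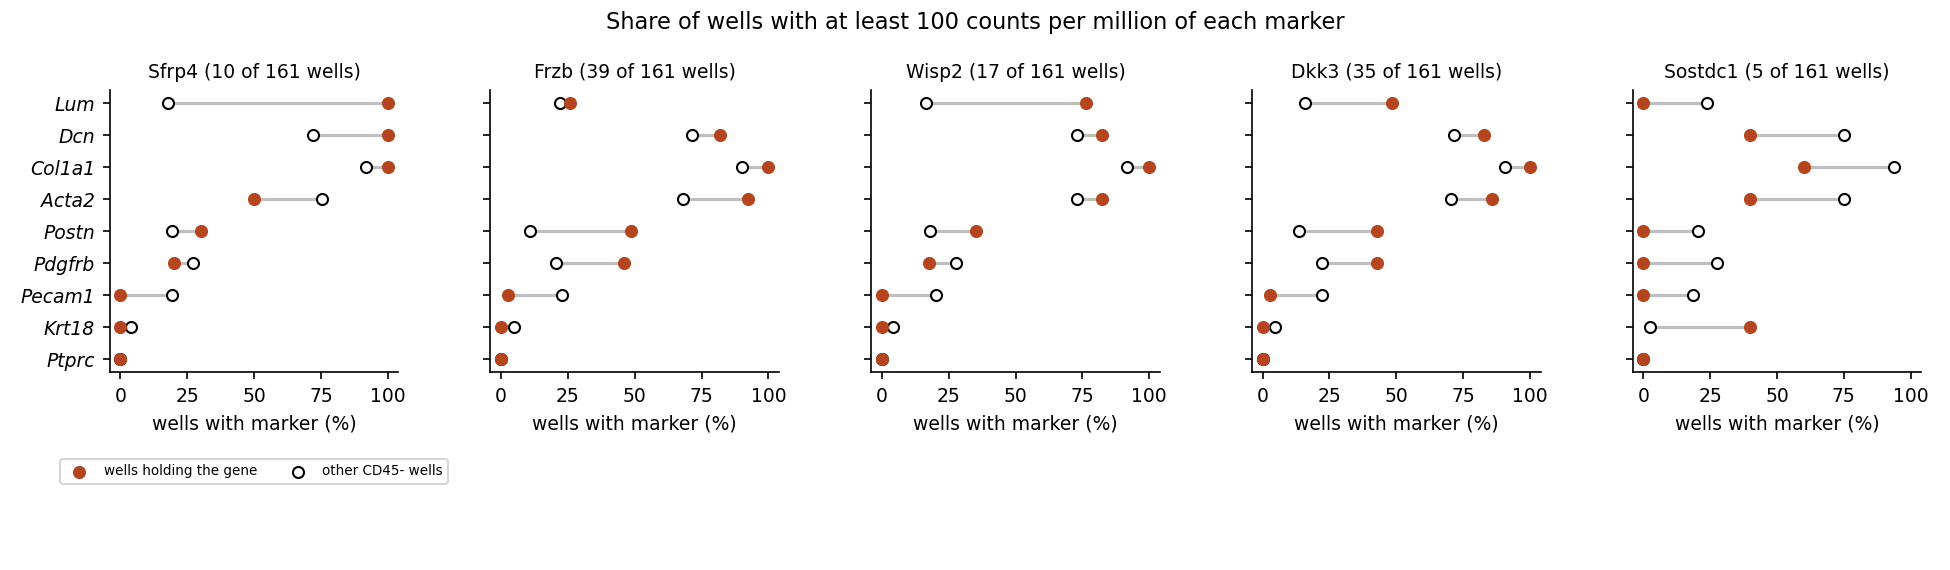
Percent of wells with at least 100 CPM of each marker, among CD45- wells that held the named gene (filled) and among all other CD45- wells (open). Lum is more frequent in Sfrp4, Wisp2 and Dkk3 wells (10 of 10, 13 of 17 and 17 of 35) than in the wells without each. Pdgfrb is more frequent in Frzb and Dkk3 wells (18 of 39 and 15 of 35) than in the wells without them. Sostdc1 wells stand apart by Krt18 and by lower shares of Lum, Dcn, Col1a1, Acta2, Postn and Pdgfrb.

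Below the holding level, reads of the 4 genes lay in most CD45- wells, except for Wisp2 in batch 2. In CD45- wells under 100 CPM, Sfrp4 had a read in 65 of 74 in batch 1 and 57 of 77 in batch 2, with medians of 3 and 1 reads. Wisp2 had a read in 67 of 67 such wells in batch 1, median 5 reads, but in 21 of 77 in batch 2, median 0. With every well thinned to 50000 reads, Sfrp4 had a read in 44.3% of CD45- wells in batch 1 and 35.4% in batch 2. The 19 and 23 wells that held at least 3 of 7 endothelial markers, assumed here to lack it, had a read in 47.4% and 39.1%. For Frzb the endothelial-marker wells had a read in 52.6% and 47.8%, against 53.2% and 59.8% of all CD45- wells. For Dkk3 they had 42.1% and 34.8%, against 48.1% and 56.1%, and for Wisp2 36.8% and 4.35%, against 55.7% and 9.76%. Median reads before thinning were 255990 and 225157 in the endothelial-marker wells and 302826 and 348004 in all. The shares in endothelial-marker wells were thus close to or above those of all CD45- wells for Sfrp4 in both batches and for Frzb in batch 1. They were lower for Dkk3 and Wisp2 in both batches and for Frzb in batch 2. What part of the single reads is background was not tested, and the text counts only wells that hold a gene. Thinned shares in the CD45+ plates were 0% and 2.56% for Sfrp4, 7.89% and 0% for Frzb, 1.32% and 1.28% for Wisp2 and 3.95% and 0% for Dkk3.

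The few CD45+ reads of Sfrp4, Frzb and Dkk3 in batch 2 lay at plate positions of CD45- holders, and those of Wisp2 and Sostdc1 mostly did not. All 4 plates use the same 96 positions, and the protocol gives each well a barcode and each plate an index before pooling. Wells that themselves held a gene were left aside and all others kept, whatever their depth. In CD45+ batch 2, 6 of 6 Sfrp4 reads, 8 of 8 Frzb reads and 4 of 4 Dkk3 reads were in wells whose position held the gene in CD45- batch 2, positions that made up 5.21%, 22.9% and 21.9% of the wells. The 4 Sfrp4 reads of replicate 66 stood opposite 2633 reads in CD45- replicate 66. Wisp2 had 1 of 4 reads there and Sostdc1 4 of 65. Over all 5 genes this was 23 of 87 reads in 11.3% of the wells in batch 2, or 7.45 reads per 10000 reads of the CD45- holders at those positions. In batch 1 it was 17 of 98 reads in 10.9% of the wells, at 5.84 per 10000. Set against CD45- holders of the other batch, CD45+ wells had 6 of 87 and 8 of 98 reads. Reads assigned to the wrong plate index and RNA of the sorted cell cannot be told apart at this level, and among CD45+ wells of at least 50000 reads the highest of Sfrp4 (31.4 CPM) and of Wisp2 (13.8 CPM), both in batch 2, lay opposite holders. In shallower wells 1 read weighs more: replicate 94 of CD45+ batch 1 stood at 71.2 CPM of Wisp2 on 1 read, opposite a CD45- well of 8.8 CPM. The Frzb well replicate 5 of CD45+ batch 1 was not of this kind: its 366 reads stood opposite 4 reads.

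**Figure D4:**
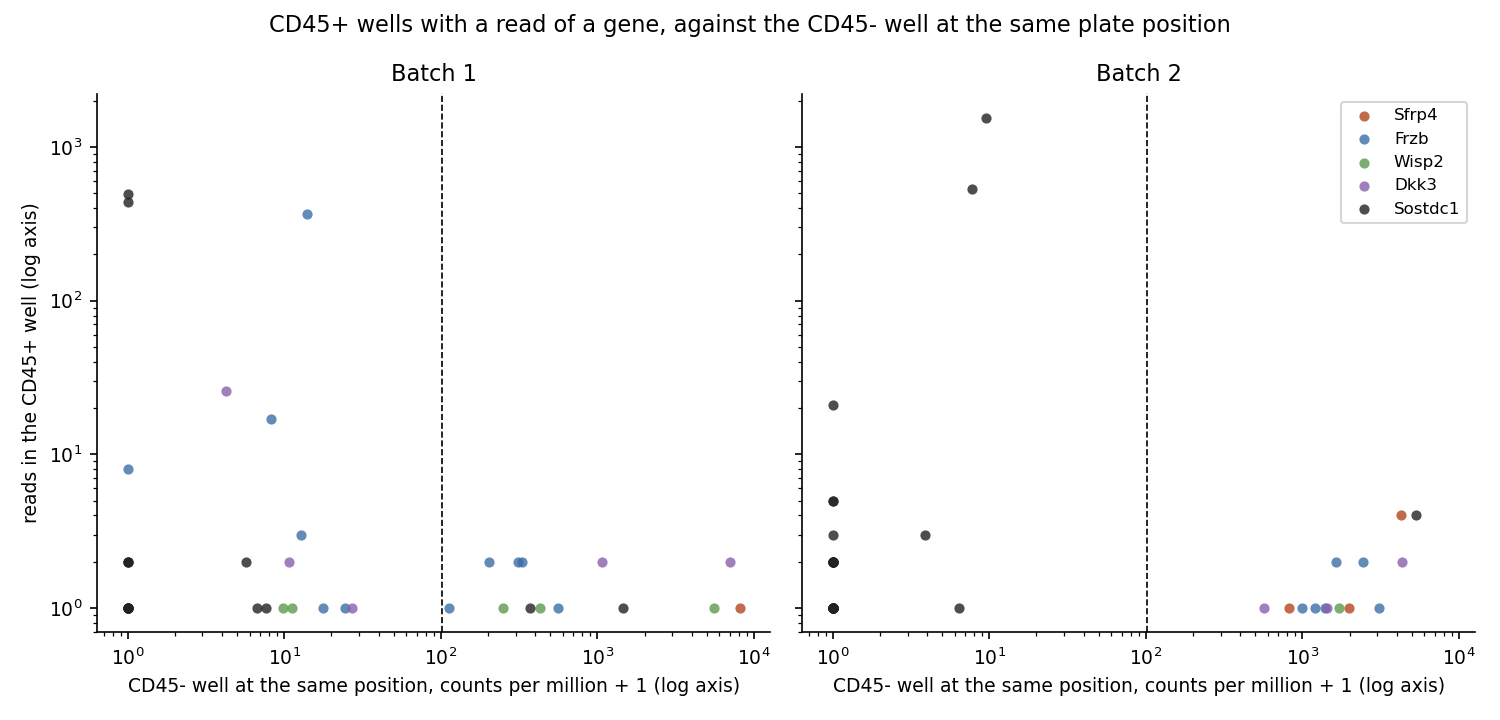
Reads of a gene in each CD45+ well that had any (vertical log axis) against CPM plus 1 in the CD45- well at the same plate position (horizontal log axis), by batch; the dashed line marks 100 CPM. In batch 2 the Sfrp4, Frzb and Dkk3 points all lie to the right of the line at 1 to 4 reads, and the 5 highest points are the CD45+ wells that held Sostdc1 or Frzb.

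The genes most like each member over CD45- wells included secreted and matrix genes for Sfrp4, Wisp2 and Dkk3, cytoskeletal genes for Frzb and an epithelial gene for Sostdc1. Likeness was Pearson's r of log2(CPM + 1), and the 5 genes with the largest smaller r of both batches were taken from about 3149 genes held in at least 5 CD45- wells of each batch. It is a description across the 79 wells of batch 1 and the 82 of batch 2, which share depth and library pool. For Sfrp4 these were Serpina3n, a secreted protease inhibitor (r = 0.51 and 0.47), Ms4a4d (0.41 and 0.49), Mfap5, a microfibril protein (0.44 and 0.37), Map1b (0.37 and 0.38) and Lbp, which binds lipopolysaccharide (0.38 and 0.35). Serpina3n was held by 7 of the 10 Sfrp4 wells and by 15 of 161 CD45- wells in all. For Wisp2 they were Dcn (0.49 and 0.48), Lum (0.60 and 0.44), Lbp (0.46 and 0.40), Rnase4 (0.39 and 0.36) and Mfap5 (0.64 and 0.34). Mfap5 and Lbp appear in both lists.

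For Dkk3 the like genes were matrix genes: Matn2, a matrilin (0.46 and 0.42), Col1a1 (0.40 and 0.40), Col16a1 (0.40 and 0.40), Col1a2 (0.39 and 0.45) and Col3a1 (0.38 and 0.50). Matn2 was held by 13 of 35 Dkk3 wells and 17 of all 161. For Frzb they were actin cytoskeleton genes and others: Tpm1, a tropomyosin (0.40 and 0.41), Snhg18 (0.37 and 0.40), Tmsb10, which binds actin monomers (0.40 and 0.37), Spon1 (0.39 and 0.36) and Tagln, a smooth muscle actin-binding protein (0.36 and 0.36). Spon1 was held by 22 of 39 Frzb wells and 42 of all 161. Without the well highest in the member, r for the genes of Sfrp4, Wisp2, Dkk3 and Frzb ranged down to 0.25, that of Mfap5 with Wisp2 in batch 2.

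For Sostdc1 the like genes were Tmem213 (0.52 and 0.43), Wfdc2, a secreted protease inhibitor of epithelia (0.54 and 0.42), Dctn3 (0.32 and 0.28), Rogdi (0.27 and 0.27) and Bckdha (0.25 and 0.35). In batch 2 the gene was held by 1 well: without replicate 88 of batch 2, r was 0.28 for Tmem213, 0.26 for Wfdc2, 0.23 for Dctn3, 0.099 for Rogdi and 0.068 for Bckdha. In batch 1 without replicate 18 it was 0.38, 0.42, 0.30, 0.17 and 0.12 for the same genes. The CD45+ wells were not used in this ranking. Of the 4 CD45+ wells that held Sostdc1, 4 held Wfdc2, at 2114 to 15438 CPM, and 3 held Tmem213, against 23 (15.3%) and 18 (12%) of the other 150. Dctn3 was held by 0 of the 4.

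Around the 5 genes, a minority of Wnt pathway genes passed the gate rule, and those called were higher in CD45-; with TMM factors 1 was called higher in CD45+. Of 95 genes in 8 lists of Wnt and BMP pathway components, 19 were called higher in CD45- and 0 higher in CD45+. All 19 were among the 53 that averaged at least 1 CPM, where 12.9% of all genes were called higher in CD45-. The median log2 ratio of the 95 was 0.13 in batch 1 and 0.16 in batch 2, against 0 and 0 over all genes. Over all genes that averaged at least 1 CPM it was 0.39 and 0.56. That is not a like comparison, since only 53 of the 95 averaged as much. Without the well highest in each gene in each CD45- plate, 12 of the 19 calls were kept, and those lost were Sfrp2, Wif1, Kremen1, Lgr6, Wls, Lef1 and Chrdl1.

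Among the 19 Wnt ligands, Wnt2, Wnt4 and Wnt5a were called. Wnt4, a ligand of kidney development, stood in batches 1 and 2 at 134 and 28.4 CPM in CD45-, against 0.227 and 0.0351 CPM in CD45+. Wnt5a, a mainly non-canonical ligand, stood at 45.5 and 45.1 CPM in CD45- against 0.189 and 0.211 CPM in CD45+. Among 16 receptors, Fzd2 (log2 ratios 5.48 and 5.68) and Ror2, a Wnt5a receptor (4.65 and 3.88), were called. The co-receptor Lrp6 and the receptor Fzd1, which had the most CPM in that list, were not called, at 5.12 and -0.63 for Lrp6 and 1.49 and 3.65 for Fzd1.

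Of the 15 other secreted modulators, 4 were called. Sfrp1, the relative of Sfrp4 and Frzb, stood at 259.5 and 354.4 CPM in CD45- against 49.5 and 22.2 CPM in CD45+, and the R-spondin Rspo3, which enhances Wnt signals, at 59 and 56.5 CPM in CD45- against 0.113 and 0.0703 CPM in CD45+. Replicate 23 of CD45- batch 1 gave 87.5% of the Rspo3 reads of its plate, and without it the log2 ratio of batch 1 was 2.92 in place of 5.75. Wif1, which encodes a Wnt-binding inhibitor, came almost wholly from 1 well in each CD45- plate, 91.2% and 98.7% of its reads, and Sfrp2 from 1 well in CD45- batch 1, 98.4%. Dkk2, of the Dickkopf family like Dkk3, stood at 290.1 and 128.9 CPM in CD45- against 32.1 and 32.2 CPM in CD45+, and its log2 ratios of 3.13 and 1.97 just missed the rule. Dkk1, Dkk4, Sfrp5 and Sost, the close relative of Sostdc1, stood at under 0.05 CPM in each plate.

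Of the 5 other CCN genes, the relatives of Wisp2, 3 were called: Ctgf (log2 ratios 5.45 and 5.46), Nov (6.03 and 6.55) and Wisp1 (4.62 and 3.65). Cyr61 stood at 0.74 and 5.16. Of 9 membrane modulators Kremen1, a Dickkopf receptor, and Lgr6, an R-spondin receptor, were called; of 12 intracellular components Wls, which carries Wnt ligands to the surface (2.38 and 2.12), was called; of 8 target genes Nkd1 (4.0 and 3.49) and Lef1 (3.83 and 3.12) were called. Tcf7l2 and Csnk1a1 of the intracellular list and Nkd2 and Ccnd1 of the target list, which had the most CPM there, were not called. Axin2, a widely used reporter of canonical signalling, stood at 28.3 and 1.51 CPM in CD45- against 0.68 and 0 CPM in CD45+, and missed the rule in batch 2. Of 11 BMP ligands and antagonists, Bmp4 (4.54 and 4.84) and the antagonist Chrdl1 (2.25 and 4.71) were called, and Bmp2 was not.

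**Figure D5:**
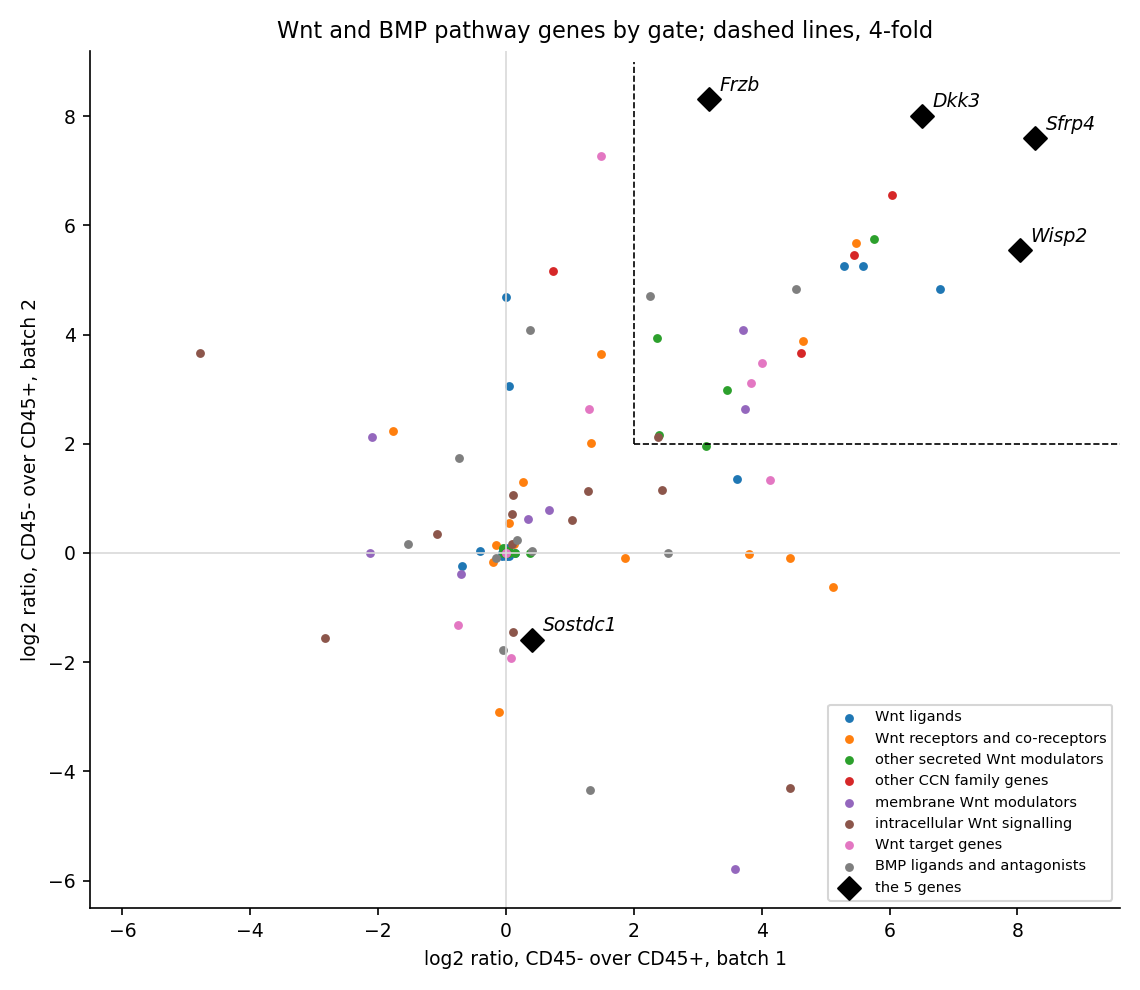
Log2 ratio of CPM plus 1, CD45- over CD45+, in batch 1 (horizontal) and batch 2 (vertical) for the 5 genes (diamonds) and 95 Wnt and BMP pathway genes (points, coloured by list); dashed lines bound the region at least 4-fold higher in CD45- in both batches. The diamonds of Sfrp4, Frzb, Wisp2 and Dkk3 lie inside that region, Sostdc1 lies outside it at 0.41 and -1.59, and 19 points lie inside.

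Some pathway genes differed in share between wells with and without a member. In the 39 Frzb wells, Wnt4 was held by 11 (28.2%) and Nkd2, an intracellular Wnt antagonist, by 12 (30.8%), against 5 (4.1%) and 6 (4.92%) of the other 122 CD45- wells. The Wnt4 wells among them were 8 of 17 in batch 1 and 3 of 22 in batch 2, and the Nkd2 wells were 4 and 8. Wnt4 was held by 0 of 10 Sfrp4 and 0 of 17 Wisp2 wells, against 16 of the other 151 (10.6%) and 16 of the other 144 (11.1%). With so few wells these zeros cannot show that the genes exclude each other. Sfrp1 was held by 7 of 10 Sfrp4 wells against 29 of the other 151, or 19.2%, and by 16 of 35 Dkk3 wells against 20 of the other 126 (45.7% and 15.9%). Ctgf was held by 9 of 17 Wisp2 wells against 21 of 144 (52.9% and 14.6%) and by 5 of 10 Sfrp4 wells against 25 of the other 151, or 16.6%. Dkk2 was held by 0 of 10 Sfrp4 wells and 36 of the other 151, and by 10 of 39 Frzb wells, 25.6%, against 26 of 122, 21.3%. As with the members, depth was higher in holding wells, 616291 against 294428 median reads for Sfrp4 in CD45- batch 1 and 439777 against 272650 for Frzb, and its part in these shares was not tested.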

How the data were processed

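Single PDGFRB+ kidney cells in 4 plates were profiled by FACS-seq with a SMARTer kit, per the labels' protocols. The authors deposited whole read counts for each well and gene, with no scaling, per the file headers and values. STAR 3.0.4, Subread and featureCounts 1.4.5 are named by the submitters' processing notes; their roles, the genome build and the annotation are not given in the sources used here. Repeated lines of 1 gene, 598 in batch 1 and 595 in batch 2, held identical counts and were dropped. Wells, plate levels, thresholds and the gate rule are as given above, computed with Python 3.11.15, numpy 2.4.6, pandas 2.3.3 and scipy 1.17.1. Calls and likeness were tested on simulated data. With 1 sample per group and batch, no p-value was computed. The wells left out, 16 of 384, held 5323 to 9740 reads each. Doublets were not called. Scaling by edgeR 4.0.16 (TMM) and DESeq2 1.42.0 (median of ratios) served as alternatives. The 5 members, the pathway and marker lists and the settings were chosen with earlier results of these data known. Named were the members, 5 like genes each (no mitochondrial, ribosomal protein, predicted or pseudogenes), called genes and the 2 most abundant of each list, and 8 fixed markers; others were chosen after their values were seen. The endothelial class of at least 3 markers was set after seeing the data.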

Additional observations from a re-analysis of the deposited data

Results flagged for a closer look

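The gate ratio of Sostdc1 had opposite signs in the batches, 0.41 in batch 1 and -1.59 in batch 2 (log2, CD45- over CD45+), and the difference was not tested. The same held for 3 pathway genes: Lrp6 at 5.12 and -0.63, Lgr5, the intestinal stem cell receptor for R-spondins, at 3.58 and -5.78, and Bmp2 at -1.54 and 0.16. None of these differences was tested.

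Wells left out of the levels held reads of the members, above the 3 reads that a count of 0 allows. The 3 wells left out of CD45- batch 1 held 7 Sfrp4 reads, and the 3 left out of CD45- batch 2 held 4 Sfrp4, 8 Frzb and 18 Dkk3 reads. In the wells left out of the CD45+ plates, the 5 genes together had 0 reads in batch 1 and 2 in batch 2.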

How the results depend on the processing

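The calls of Sfrp4, Frzb, Wisp2 and Dkk3 held under every alternative run. Their mean log2 ratio over the batches (7.94, 5.74, 6.79 and 7.26) was 10.4, 8.92 and 8.73 for Sfrp4, Wisp2 and Dkk3 with a pseudocount of 0.1 CPM and 4.81, 3.8 and 4.59 with 10 CPM. Averaging wells gave 7.01 for Sfrp4. Leaving out the top well of each plate in turn gave 6.76 to 8.02 for Sfrp4, 5.65 to 7.08 for Frzb, 6.08 to 6.84 for Wisp2, 7.04 to 7.65 for Dkk3 and -2.51 to 0.30 for Sostdc1 (-0.59 with all wells). TMM factors moved the median ratio of genes of at least 1 CPM by -0.32 and -0.48 in batches 1 and 2, and median-of-ratios factors by -0.33 and -0.52, with Sostdc1 in batch 1 then at 0.02 and 0.00.

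Counts of CD45- wells depended on the holding level. For Sfrp4 they were 65 at 10 CPM, 132 with any read and 22 over all kept wells, in place of 10. Frzb had 92 at 10 CPM, 25 at 500 CPM and 145 with any read, in place of 39. Wisp2 had 65, 7 and 105, and 27 over all kept wells, in place of 17. Dkk3 had 83, 21 and 142, in place of 35. Sostdc1 had 9, 2 and 43, in place of 5. Wells with 2 or more members were 102, 15 and 157, and 40 over all kept wells, in place of 25; the shallower wells gave 4.

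Called pathway genes were 29 at 2-fold (28 higher and 1 lower in CD45-) and 9 with a pseudocount of 10 CPM, in place of 19. With TMM factors 16 were higher and 1 lower, and without each gene's top CD45- wells 12 and 3; without its top CD45+ wells all 24 were higher. The last pair and the split by depth were chosen after seeing the data. Each plate is 1 sample, so no spread between animals is known, and at 50000 reads 100 CPM is 5 reads. No paired analysis was possible because replicate numbers name wells that hold different cells; the gate ratios are already taken within a batch.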

Other observations

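Wells of under 50000 reads, which include the left-out wells and are in no main count of holding wells, also carried the members. Pooled over the 17 such CD45- wells of batch 1, Sfrp4 stood at 173.5 CPM on 49 reads and Wisp2 at 304.5 CPM on 86 reads. The 3 left-out wells among them gave 7 of those Sfrp4 reads and 2 of the Wisp2 reads. Pooled over the 14 such CD45- wells of batch 2, Frzb stood at 210.8 CPM on 46 reads and Dkk3 at 229.1 CPM on 50 reads. There the 3 left-out wells gave 8 of the Frzb reads and 18 of the Dkk3 reads. Sostdc1 had 2 reads in those of batch 1 and 0 in those of batch 2.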
